A study of Homo sapiens with 4 samples.

Results

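The transcripts of 10 genes that make, control and break down polyamines were followed in MDA-MB-231 cells, a human triple-negative breast cancer line, after MGH-CP1, an inhibitor of the palmitoylation of TEAD transcription factors. The genes are the synthetic enzymes ODC1, AMD1, SRM and SMS, the antizyme system OAZ1, OAZ2 and AZIN1, and the catabolic enzymes SAT1, SMOX and PAOX. They were picked by symbol from the 48162 genes of the deposited table, in which each symbol occurred once, and all 10 were among the 12080 genes that passed the filter on low values. The pathway was chosen with the fall of ODC1 in this comparison already known, so the values of the 10 genes are a description and carry no test of their own.

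RNA was sequenced from 2 libraries of cells treated for 24 h with MGH-CP1 and 2 libraries of cells given vehicle control, all from the parental line in serum-containing medium, with no other treatment or allele in either group. The labels give the dose of MGH-CP1 as 10 µM, whereas the study's methods print 10 mM. Neither source says whether the replicates were separate cultures, so the spread between them may be technical. VIM (281 and 267 FPKM), CD44 (205 and 198 FPKM) and EGFR (49.7 and 48.5 FPKM), listed as present in this line, were expressed in the vehicle control libraries. The hormone receptors ESR1 and PGR were lacking, with at most 4 fragments in any library. PTPRC, a marker of blood cells, had at most 3 fragments. EPCAM, an epithelial gene listed as low for this line, was present at 12.4 and 13.9 FPKM in the vehicle control libraries, as was ERBB2 at 24.7 and 24.9 FPKM, whereas the epithelial cadherin CDH1 stayed below 1 FPKM in every library. PECAM1, chosen as a marker of endothelium, was not found by that name among the listed genes.

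Polyamines are small, positively charged molecules (putrescine, spermidine and spermine) that bind nucleic acids and are needed for growth. ODC1 decarboxylates ornithine to putrescine, AMD1 decarboxylates S-adenosylmethionine to provide aminopropyl groups, SRM adds one such group to make spermidine, and SMS adds another to make spermine. Antizymes bind ODC1 and send it to the proteasome, and AZIN1, an ODC1 relative without enzyme activity, captures antizyme. SAT1 acetylates spermidine and spermine for oxidation by PAOX or for export, and SMOX oxidises spermine directly. ODC1 is a classical target of MYC, which binds the E-box CACGTG.

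The sequences around the start sites of the genes with the largest fall and rise are shown because the data compare the transcripts made from them. They come from RefSeq on GRCh38.p14, run from 250 bases before to 30 bases after the annotated start, and carry the E-box in capitals. The upstream of 2 annotated ODC1 starts lies in chr2:10448298-10448577 and the downstream one, 315 bases away, in chr2:10447983-10448262, both on the minus strand. SRM lies in chr1:11059989-11060268 on the minus strand and SAT1 in chrX:23782923-23783202 on the plus strand.
ODC1 upstream start: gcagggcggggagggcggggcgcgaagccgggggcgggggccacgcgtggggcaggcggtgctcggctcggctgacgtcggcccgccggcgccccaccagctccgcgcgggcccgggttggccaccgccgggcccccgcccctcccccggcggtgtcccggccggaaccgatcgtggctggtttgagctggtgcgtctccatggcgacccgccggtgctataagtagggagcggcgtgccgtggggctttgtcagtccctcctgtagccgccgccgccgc
ODC1 downstream start: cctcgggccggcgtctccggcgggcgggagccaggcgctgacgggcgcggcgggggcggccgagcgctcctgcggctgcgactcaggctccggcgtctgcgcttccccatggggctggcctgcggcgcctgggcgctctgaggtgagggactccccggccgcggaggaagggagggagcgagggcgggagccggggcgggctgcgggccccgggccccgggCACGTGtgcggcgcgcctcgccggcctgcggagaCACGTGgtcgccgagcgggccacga
SRM: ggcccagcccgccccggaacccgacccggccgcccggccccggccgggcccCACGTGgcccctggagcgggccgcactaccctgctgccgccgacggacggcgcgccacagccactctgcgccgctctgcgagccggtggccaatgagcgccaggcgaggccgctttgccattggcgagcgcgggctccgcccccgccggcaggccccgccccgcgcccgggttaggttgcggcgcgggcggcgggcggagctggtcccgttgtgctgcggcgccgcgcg
SAT1: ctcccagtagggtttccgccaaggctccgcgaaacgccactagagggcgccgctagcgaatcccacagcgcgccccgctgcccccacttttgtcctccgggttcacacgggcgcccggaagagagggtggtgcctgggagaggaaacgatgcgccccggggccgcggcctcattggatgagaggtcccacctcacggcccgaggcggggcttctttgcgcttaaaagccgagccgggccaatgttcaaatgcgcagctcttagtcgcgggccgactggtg

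Of the 10 genes, 7 had an entry in this promoter table (AMD1, OAZ1, OAZ2, ODC1, SAT1, SMS and SRM), and AZIN1, SMOX and PAOX had none. The E-box CACGTG, which reads the same on both strands, was found at the downstream ODC1 start, with matches that begin at positions -29 and 6 from that start, and at position -199 of SRM. It was found in none of the windows of AMD1, OAZ1, OAZ2, SAT1 and SMS. Of all 35116 promoter windows of this length, 6.94% held it. The TEAD motif GGAATG, searched on both strands, occurred in 13.3% of all windows and in none of those of the 7 genes. The GC box GGGCGG occurred in 44.1% of all windows and in those of AMD1, OAZ1, OAZ2, ODC1, SMS and SRM, and the TATA box TATAAA in 11.2% of all windows and in that of OAZ1. All 4 motifs were searched as exact strings on both strands. A near match, such as TATAAG in the upstream ODC1 window, was therefore not counted. None of the 4 motifs contains another, and they were chosen after the expression values were seen. A match or its absence describes letters in these windows, and sequence outside them was not searched.

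The comparison of MGH-CP1 with vehicle control asked how blocking TEAD changes the transcriptome. The authors deposited FPKM, the number of sequenced fragments scaled to the length of the gene and to the sum of fragments over the listed genes of a library, so levels can be set side by side between genes. Summed over genes, 25455533 and 25508824 fragments were counted under vehicle and 17997221 and 17577930 under MGH-CP1. The difference in depth ran along the treatment, and at equal depth, with the deeper libraries thinned to the shallowest, the same 5 genes of the 10 were called lower. In bulk RNA, fewer transcripts per cell and fewer cells that express a gene cannot be told apart.

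After MGH-CP1, the transcripts of all 4 synthetic enzymes and of the antizyme inhibitor AZIN1 were called lower, and those of SAT1 and SMOX, 2 of the 3 catabolic enzymes, were called higher. The call of SMOX was lost in 8 of 14 alternatives, and PAOX and both antizymes did not pass the test. ODC1 and SRM were the members that fell most, and SAT1 the one that rose most. At an adjusted p under 0.05 from limma on log2(FPKM + 1), with Benjamini-Hochberg adjustment over the 12080 genes, 5 of the 10 genes were called lower (ODC1, SRM, SMS, AMD1 and AZIN1), 2 higher (SAT1 and SMOX), and OAZ1, OAZ2 and PAOX did not pass. Of all genes tested, 23.8% were called lower and 27.1% higher, and since the set was built around ODC1, nothing is read from the count. The median log2 fold change of the 10 genes was -0.08, beside 0.01 for all genes tested. By role it was -0.71 for the synthetic enzymes, 0.06 for the antizyme system and 0.25 for the catabolic enzymes.

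**Figure D1:**
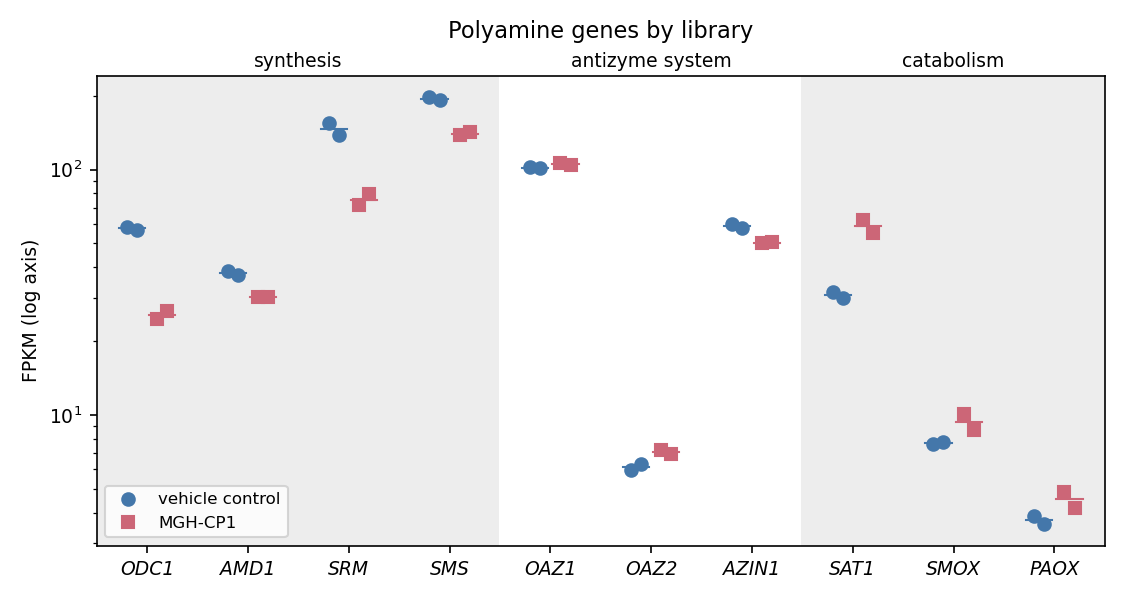
FPKM of the 10 polyamine genes (log axis) in the vehicle control (circles) and MGH-CP1 (squares) libraries, with a line at the mean of each group of 2. The squares of ODC1, AMD1, SRM, SMS and AZIN1 lie below both circles of the gene, and those of OAZ1, OAZ2, SAT1, SMOX and PAOX above both.

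ODC1, the first and rate-limiting enzyme of synthesis (ENSG00000115758, minus strand of chromosome 2, 10580094 to 10588630 in hg19 coordinates), had 58.6 and 56.6 FPKM in the vehicle control libraries and 24.7 and 26.5 FPKM after MGH-CP1. Both treated libraries lay well below both controls. The mean fell from 57.6 ± 1.42 to 25.6 ± 1.30 FPKM (SD, n = 2 each), which left 44.4% of the vehicle level. On the log2(FPKM + 1) scale, which understates the changes of scarce transcripts, the log2 fold change was -1.14 (standard error 0.06). In the order of all 12080 genes from the deepest fall ODC1 stood at place 8. This place is the value for which the pathway was chosen.

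SRM, spermidine synthase (ENSG00000116649, minus strand of chromosome 1, 11114641 to 11120081), had 155 and 139 FPKM in the vehicle control libraries and 71.5 and 79.4 FPKM after MGH-CP1. The gap between the groups was wider than that between the replicates, although the replicates of SRM differed more than those of ODC1. The treated level was 51.4% of the vehicle level, with a log2 fold change of -0.95 (standard error 0.07), and SRM stood at place 55 from the deepest fall. Taken over the 4 pairs of a treated and a control library, the log2 difference of SRM ran from -1.10 to -0.80 and that of ODC1 from -1.22 to -1.07. Within each library, ODC1 was at 0.379 and 0.408 times the SRM level in the controls and at 0.345 and 0.334 times after MGH-CP1. These ratios did not overlap, so in each of the 4 pairs ODC1 fell more than SRM. The pairs share libraries, and the pathway was chosen for the fall of ODC1, so this order is a description.

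SMS, spermine synthase (ENSG00000102172, plus strand of chromosome X, 21958691 to 22025798), had the highest FPKM of the 10 genes in both conditions. It had 197 and 192 FPKM in the vehicle control libraries and 138 and 142 FPKM after MGH-CP1, and the log2 fold change was -0.47 (standard error 0.05). After MGH-CP1, OAZ1 held more fragments (5427 and 5207) than SMS (4553 and 4589), at a listed length of 2828 against 1837 bases. AMD1, S-adenosylmethionine decarboxylase (ENSG00000123505, plus strand of chromosome 6, 111195973 to 111216916), had 38.7 and 37.3 FPKM in the controls and 30.4 and 30.1 FPKM after MGH-CP1. Its log2 fold change of -0.32 (standard error 0.05) was the smallest of the synthetic enzymes, with 79.6% of the vehicle level left against 71.9% for SMS. In neither gene did the groups overlap, and the pair ranges of the log2 difference, -0.52 to -0.43 for SMS and -0.35 to -0.29 for AMD1, stood apart from each other and from those of ODC1 and SRM. Summed over the 4 synthetic enzymes, the level was 450 and 424 FPKM in the controls and 264 and 278 FPKM after MGH-CP1, 0.621 times the vehicle mean.

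**Figure D2:**
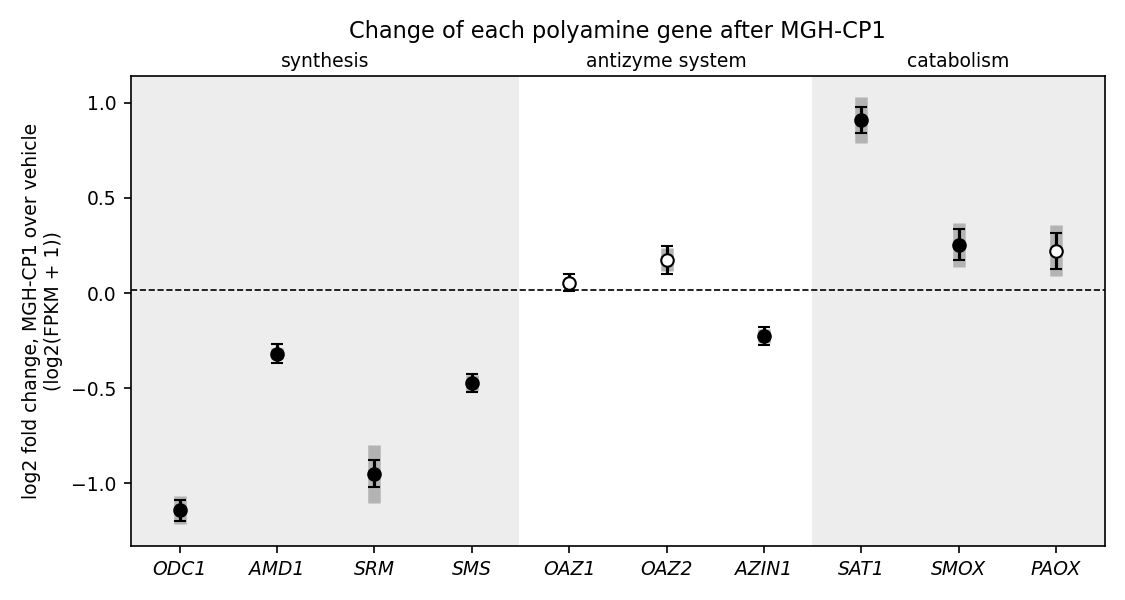
Log2 fold change of each gene after MGH-CP1 on the log2(FPKM + 1) scale (points, filled where the adjusted p was under 0.05, bars for the standard error), with grey bars for the range over the 4 pairs of libraries and a dashed line at the median of all genes tested, 0.01. ODC1 at -1.14 and SRM at -0.95 stand lowest and SAT1 at 0.91 highest.

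In the antizyme system, OAZ1 (ENSG00000104904, plus strand of chromosome 19, 2269519 to 2273487), the main antizyme, had 102 and 101 FPKM in the vehicle control libraries and 107 and 105 FPKM after MGH-CP1. The groups did not overlap, but the log2 difference of 0.06 (standard error 0.04) did not pass the threshold. OAZ2 (ENSG00000180304, minus strand of chromosome 15, 64979772 to 64995480), a second antizyme, was much scarcer, with 5.98 and 6.33 FPKM in the controls and 7.21 and 6.94 FPKM after MGH-CP1. Its log2 difference of 0.18 (standard error 0.07) did not pass either, and it passed when limma voom was fitted to recovered fragments. AZIN1 (ENSG00000155096, minus strand of chromosome 8, 103838585 to 103906092), the antizyme inhibitor, fell from 60.2 and 58.1 FPKM to 50.1 and 50.8 FPKM, a log2 fold change of -0.22 (standard error 0.05) that left 85.3% of the vehicle level. Antizyme protein is made by a ribosomal frameshift that polyamines promote, a step that transcript levels do not show.

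Because antizyme and its partners act against each other, their transcripts were also set in relation within each library, where a scale factor of the library cancels. For each FPKM of OAZ1 plus OAZ2 there were 0.542 and 0.526 FPKM of ODC1 in the vehicle control libraries and 0.217 and 0.237 after MGH-CP1. The ratio of AZIN1 to the antizymes was 0.557 and 0.540 in the controls and 0.440 and 0.455 after MGH-CP1. The treated libraries were below the controls in both ratios, and the mean ratio was 0.425 times the vehicle value for ODC1 and 0.816 times for AZIN1. OAZ1, most of the divisor, changed by 0.06 on the log2 scale. The ODC1 ratio thus largely restates the fall of ODC1 to 44.4% of the vehicle level, for which the pathway was chosen. An exact permutation test of 2 libraries against 2 cannot go below p = 0.33 (two-sided), its value for each of these ratios, so it decides nothing.

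SAT1, the inducible acetyltransferase of polyamine breakdown (ENSG00000130066, plus strand of chromosome X, 23801290 to 23804343), had 31.6 and 30.01 FPKM in the vehicle control libraries and 62.4 and 55.3 FPKM after MGH-CP1. Both treated libraries were far above both controls. The level rose 1.91-fold, with a log2 fold change of 0.91 (standard error 0.07), and 289 of the 12080 genes rose more. SAT1 was thus at 0.538 and 0.530 times the ODC1 level in the controls and at 2.53 and 2.09 times after MGH-CP1. The order of the 2 FPKM values turned around, an order that rests on the listed gene lengths. In fragments after MGH-CP1, SAT1 had 1274 and 1104 and ODC1 1177 and 1235. The ratio of SAT1 to ODC1 also carries the fall of ODC1 for which the pathway was chosen.

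The oxidases were scarce in both conditions. SMOX, spermine oxidase (ENSG00000088826, plus strand of chromosome 20, 4101627 to 4168394), had 7.60 and 7.79 FPKM in the vehicle control libraries and 10.1 and 8.69 FPKM after MGH-CP1, and the log2 fold change was 0.25 (standard error 0.08). Its call rested on single libraries and settings. The log2 fold change was 0.16 without MGH-CP1 replicate 1, 0.24 without vehicle control replicate 1 and 0.27 without vehicle control replicate 2, and SMOX was not called in these fits nor at equal depth. PAOX, which oxidises acetylated polyamines (ENSG00000148832, plus strand of chromosome 10, 135192695 to 135205198), had 3.89 and 3.59 FPKM in the controls and 4.87 and 4.19 FPKM after MGH-CP1. The groups did not overlap, but the log2 difference of 0.22 (standard error 0.10) did not pass, and it passed at equal depth. PAOX had the fewest fragments of the 10 genes, between 137 and 184 per library.

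**Figure D3:**
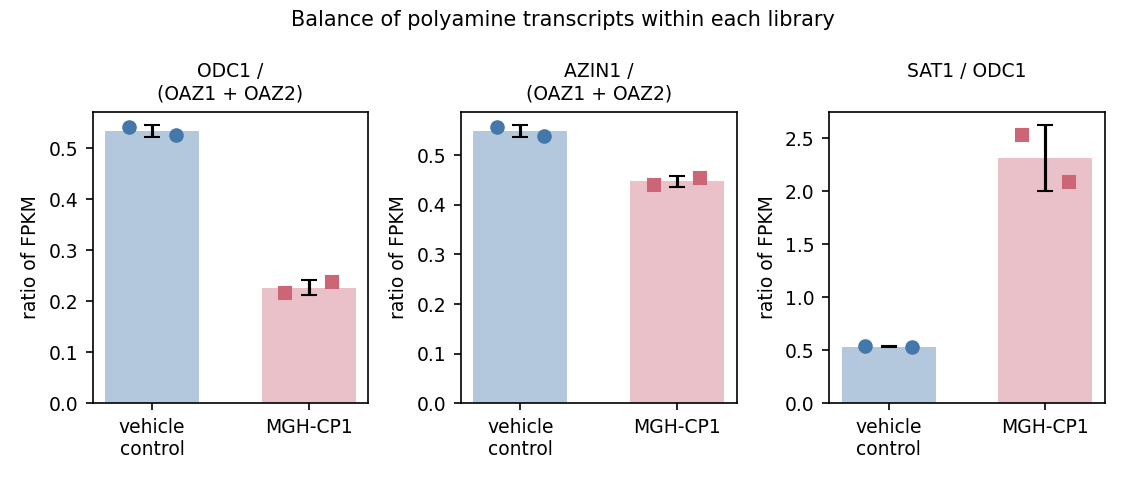
Ratios of FPKM within each library for ODC1 and AZIN1 over the summed antizymes OAZ1 and OAZ2, and for SAT1 over ODC1 (points, libraries; bars, mean of 2; error bars, SD). The ODC1 ratio lies between 0.526 and 0.542 in the controls and between 0.217 and 0.237 after MGH-CP1, and the SAT1 ratio rises from at most 0.538 to at least 2.09.

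The order of levels is one of FPKM and rests on the listed gene lengths. In the vehicle control libraries, SMS (195 FPKM) and SRM (147 FPKM) came first, followed by OAZ1 (102 FPKM), AZIN1 (59.1 FPKM) and ODC1 (57.6 FPKM). AZIN1 and ODC1 overlapped between libraries, and all other neighbours in the order stood apart. AMD1 (38.0 FPKM), SAT1 (30.8 FPKM), SMOX (7.70 FPKM), OAZ2 (6.16 FPKM) and PAOX (3.74 FPKM) followed. OAZ2, with a listed length of 7102 bases, had 1081 and 1147 fragments in the controls. SMOX, at 2233 bases, had 432 and 444. After MGH-CP1 the order was SMS, OAZ1, SRM, SAT1, AZIN1, AMD1, ODC1, SMOX, OAZ2 and PAOX, with no overlap between neighbours. ODC1 moved from place 5 to place 7 and SAT1 from place 7 to place 4, while the last 3 places did not change. In all 10 genes the 2 conditions did not overlap, with 5 genes lower and 5 higher, and of all genes tested 37.4% were lower and 39.8% higher without overlap.

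The replicates were close. The SD was at most 7.76% of the mean in the vehicle control group, for SRM, and at most 10.6% in the MGH-CP1 group. For ODC1, SRM, SMS, AMD1, SAT1 and SMOX no other listed gene overlapped. Genes that overlap OAZ1, OAZ2, AZIN1 and PAOX held at most 24 fragments in a library. The listed copies AMD1P1 and SRMP1 held 0 fragments. The sources used here do not state whether fragments were counted by strand.

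The 5 genes outside the set whose profile over the 4 libraries lay nearest to that of ODC1, by Euclidean distance of centred log2(FPKM + 1), were TMEM97 (0.04), C11orf82 (0.05), RRM2 (0.07), CENPF (0.07) and COL12A1 (0.07). TMEM97 is a sterol-regulated membrane protein, RRM2 a subunit of ribonucleotide reductase and CENPF a kinetochore protein. RRM2 had 89.4 and 90.9 FPKM in the controls and 40.0 and 43.3 FPKM after MGH-CP1. With 4 libraries in 2 conditions, nearness says little more than a fall of the same size.

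Beyond the 10 genes, 33 others of polyamine metabolism were listed by role, of which 25 passed the filter. Among them 9 were called lower and 5 higher, against 23.8% and 27.1% of all genes tested, and 11 did not pass. Their median log2 fold change was 0.01, beside 0.01 for all genes tested. Without the filter on low values the counts were 5 and 3, with 30 of the genes tested.

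SLC7A1, the cationic amino acid transporter that brings in arginine and ornithine, fell most among these genes. It had 53.1 and 52.2 FPKM in the vehicle control libraries and 26.5 and 31.5 FPKM after MGH-CP1, and the log2 fold change was -0.84 with a standard error of 0.08 (limma, adjusted p = 1.00e-04). SLC3A2, the heavy chain of several amino acid transporters that also takes part in polyamine transport, fell by 0.46 on the log2 scale (limma, adjusted p = 7.32e-04). Of the 8 transport genes tested, 3 were called lower and 1 higher, against 23.8% and 27.1% of all genes tested. The other 2, named after their values were seen, were the polyamine transporter ATP13A3 (log2 fold change -0.35) and SLC12A8 (0.34). SLC12A8 was not called without MGH-CP1 replicate 2 (0.29) or vehicle control replicate 1 (0.27). ATP13A2, which exports polyamines from lysosomes, had 30.9 and 32.5 FPKM in the controls and 31.6 and 31.1 FPKM after MGH-CP1, and its groups overlapped.

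Among 5 tested genes that supply ornithine and S-adenosylmethionine, MAT2A, which makes S-adenosylmethionine, rose slightly, from 88.9 and 92.7 FPKM to 105 and 106 FPKM (log2 fold change 0.22, limma, adjusted p = 0.00591). AGMAT, named after its value was seen, was called lower, from a control mean of 2.17 FPKM to 1.30 FPKM, but not without vehicle control replicate 2 (log2 fold change -0.38). The arginase ARG2 and the ornithine aminotransferase OAT overlapped between the groups. ARG1 had 0 fragments in every library, which, at a limit of 3 fragments, allows at most 0.111 FPKM.

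The salvage of methylthioadenosine, the by-product of SRM and SMS, held changes in both directions. MTAP, its first enzyme, had 0 fragments in all 4 libraries, which allows at most 0.0279 FPKM for counting error. MRI1, the isomerase that follows, rose from 4.06 and 3.56 FPKM to 7.01 and 6.56 FPKM (log2 fold change 0.70, standard error 0.09, limma adjusted p = 4.29e-04). ENOPH1, a later enzyme named after its value was seen, fell from 39.8 and 40.5 FPKM to 28.5 and 28.7 FPKM, and APIP and ADI1 did not pass the threshold.

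Of the further antizyme and acetyltransferase genes, 2 of 3 tested were called higher, against 27.1% of all genes tested. With so few genes nothing is read from the count. SAT2, a relative of SAT1, rose from 11.5 and 13.1 FPKM to 19.3 and 19.6 FPKM (log2 fold change 0.62, standard error 0.07, limma adjusted p = 2.64e-04). AZIN2, listed in the table under its older symbol ADC and named after its value was seen, rose from 1.44 and 1.35 FPKM to 2.57 and 2.21 FPKM. AZIN2 thus rose where AZIN1 fell, at a far lower level. SATL1 overlapped between the groups, and OAZ3 did not reach the filter.

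Spermidine is also the donor for hypusine, the modification of eIF5A that lets it assist translation. EIF5A fell from 207 and 219 FPKM to 167 and 176 FPKM (log2 fold change -0.31, standard error 0.05, limma adjusted p = 0.00160), a value that may hold fragments of near-identical copies such as EIF5AL1, listed with 15 to 30 fragments. DOHH, which completes hypusine, fell by 0.38 on the log2 scale (limma, adjusted p = 0.00542). DHPS, which transfers the aminobutyl group, had 52.5 and 54.8 FPKM in the controls and 60.1 and 57.7 FPKM after MGH-CP1 and did not pass, with a log2 difference of 0.13 that passed under quantile normalization, at 0.17. Among the 4 genes tested here 3 were called lower, against 23.8% of all genes tested. EIF5A2, named after its value was seen, was the other of these 3 (log2 fold change -0.27). It was not called without MGH-CP1 replicate 1 (-0.23) or vehicle control replicate 1 (-0.23).

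MYC had 63.3 and 67.3 FPKM in the vehicle control libraries and 55.4 and 56.9 FPKM after MGH-CP1. The change on the log2 scale was -0.21 with a standard error of 0.05 (limma, adjusted p = 0.00966), which left 86.0% of the vehicle level, against 44.4% for ODC1 and 51.4% for SRM. Without MGH-CP1 replicate 1 the fall of MYC was 0.19 on the log2 scale and was no longer called (limma, adjusted p = 0.0610). Whether the level of MYC bears on those of ODC1 and SRM was not tested.

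**Figure D4:**
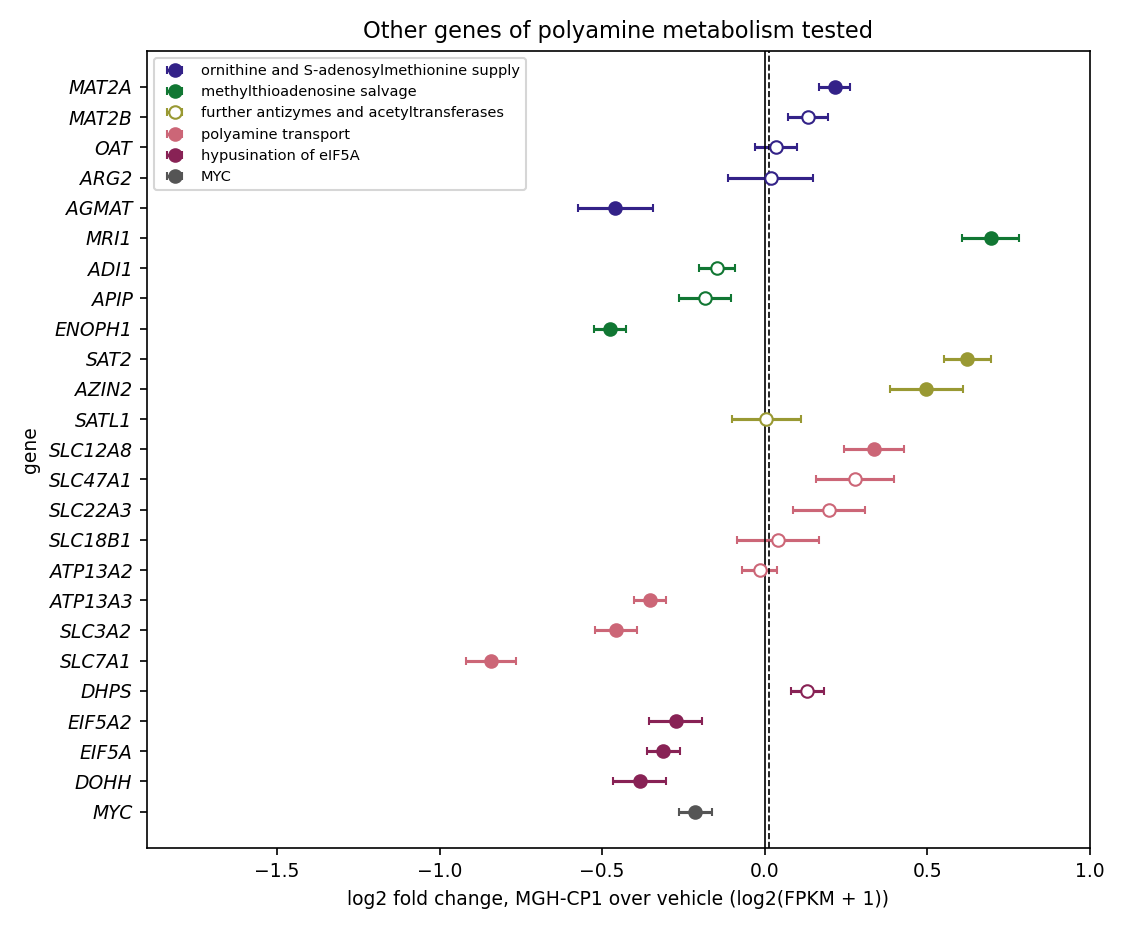
Log2 fold change after MGH-CP1 of the 25 other polyamine genes tested, coloured by role (filled points, adjusted p under 0.05; bars, standard error; solid line at 0, dashed line at the median of all genes, 0.01). SLC7A1 stands lowest at -0.84 and MRI1 highest at 0.70, with genes of most roles on both sides.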

How the data were processed

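RNA of MDA-MB-231 cells (2 MGH-CP1 and 2 vehicle control libraries, poly-T selected) was made into libraries by Novogene and sequenced. The authors deposited FPKM per gene with coordinates and a fixed gene length. The submitters' processing notes name CASAVA 1.8, STAR and hg19, and the counting tool is not given in the sources used here. FPKM multiplied by length gave whole fragment numbers for 100% of values (tolerance 0.001), which served for depth, voom and thinning.

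Genes were kept at a mean FPKM of 1 or more (12080 genes), and log2(FPKM + 1) was compared with limma 3.58.1 in R 4.3.3 (trend, two-sided, Benjamini-Hochberg over all genes, threshold 0.05). The study used a per-gene test, which was run as an alternative without shared variance. Simulated data were used to check the script. The 10 genes, the 33-gene list and the tests were chosen with earlier results of these data known, and the motifs and equal depth after the values were seen. Named genes were the 10 members, MAT2A, MTAP, DHPS, DOHH, EIF5A, SLC3A2, MYC, listed genes called with a log2 change of 0.5 or more, and the 5 nearest to ODC1. Alternatives were another pseudocount, filter, scaling or variance model, voom, a replicate block and leaving out each library. The limits given for genes with 0 fragments cover counting error only. Standard errors come from the limma fit and SDs from the 2 libraries of a group.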

Additional observations from a re-analysis of the deposited data

How the results depend on the processing

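ODC1, SRM, SMS, AMD1, AZIN1 and SAT1 kept their direction and call in every alternative but the fit without shared variance, and no member, called gene of the wider list, DHPS or gene near ODC1 changed direction (MTAP, at 0, could not be fitted). In that fit the counts at an adjusted p under 0.05 were 0 members lower and 0 higher and 0 of the wider list lower and 0 higher (limma, per gene), while 5 and 1 members and 8 and 4 of the wider list had an unadjusted p under 0.05. Over all genes 13 were called. Members called higher, 2 in the main comparison, were 1 without the filter, 1 with quantile normalization and 1 without the trend, SMOX being lost (MYC, DOHH, AGMAT, EIF5A2, SLC12A8 and AZIN2 were also lost without the filter, and SLC12A8 with quantile normalization), and 2 at equal depth with PAOX in place of SMOX. They were 1 to 2 with a library left out, against 5 lower throughout. The wider list had 5 lower and 3 higher without the filter and 3 higher at a mean FPKM of at least 5, where fewer genes were tested, and 7 to 9 lower and 4 to 5 higher with a library left out. With the replicate number as a block, 5 members were lower and 2 higher, and 10 of the wider list lower. Same-numbered libraries correlated by 0.0777 in their deviations, and the main fit did not treat them as pairs. With 2 libraries a group this value cannot exclude a pairing. The median of all genes moved between -0.03 and 0.02 on the log2 scale over all alternatives. With a library left out, a group is 1 sample assumed to vary like the other.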
